A study of Mus musculus with 2 samples.

Results

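Retained intron transcripts are annotated transcripts that keep, or begin or end inside, sequence that other transcripts of the gene remove as an intron. They were chosen here as the transcripts typed as retained intron in GENCODE M21 whose gene reached 10 TPM, a level corrected for transcript length and library depth, in both libraries. There were 10302 of them among 103639 Ensembl transcripts quantified, in 3975 of the 8768 genes at that level (45.3%). The measure used throughout is the share, the TPM of a transcript as a percentage of the summed TPM of all transcripts of its gene. Because of the length correction, a short transcript with few reads can hold a large share. The members were thus chosen by the measured TPM of their gene, and that level is given only as a description. Just inside the limit lay Stard5 at 10.02 and 12.4 TPM, Galnt7 at 10.03 and 10.5 TPM and Tsga10 at 10.5 and 10.01 TPM in replicates 1 and 2, and just outside it lay Ddx59 (9.99 and 11.3 TPM), Nek1 (9.99 and 10.2 TPM) and Ears2 (11.6 and 9.99 TPM).

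The samples were 2 libraries, labelled biological replicates 1 and 2, of central nervous system tissue taken at embryonic day 11.5 from the mouse strain C57BL/6J. Each drew on littermates of both sexes. Polyadenylated RNA longer than 200 nucleotides, depleted of ribosomal RNA, was sequenced as read pairs with the strand kept. The series has 1 group and no treatment, so the values below are described with their spread over the 2 libraries, and nothing was tested between conditions. The tables held 126358805 and 111687579 expected counts, the reads that the quantification assigned to each transcript, and the median member had 104 and 106 of them. All 8 marker genes of the developing nervous system were above 1 TPM in both libraries. Markers of other tissues were present too and differed between the libraries: 5 red blood cell genes summed to 9879 and 16307 TPM, and 3 skeletal muscle regulators, each under 1 TPM in replicate 1, summed to 0.650 and 56.5 TPM. Genes of liver and yolk sac went the other way, with 764 and 307 TPM, mesenchyme genes summed to 448 and 387 TPM, and endothelial genes to 67.8 and 76.2 TPM. In such bulk tissue, fewer cells of a type and less RNA per cell cannot be told apart.

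Introns are removed from a primary transcript by the spliceosome, which recognises the GT that usually opens an intron and the AG that usually closes it. A polyadenylated RNA that still holds an intron is often kept in the nucleus, where it may be spliced later, or is degraded once a ribosome meets a stop codon in the intron. Genes of splicing factors are known for such introns, through which many of them limit their own output. In the developing nervous system, retention is also known to hold back neuronal messages in cells that are not yet neurons.

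The sequences of 4 short introns show what these transcripts carry. They are 4 of the introns under 90 bases in the genes with the most abundant members, chosen because each lies whole inside coding sequence. They come from the GENCODE M21 transcripts (build mm10), run 5′ to 3′ on the gene's strand, and capitals mark the first and last 2 bases and the first stop codon in the upstream reading frame. Calr, a calcium-binding chaperone of the endoplasmic reticulum, has a transcript that spans intron 4 of 8 (chr8:84844784-84844870, minus strand). Eef1a1, which brings aminoacyl tRNA to the ribosome, has one that spans intron 6 of 7 (chr9:78479193-78479277, minus strand). Vim, the intermediate filament of neural progenitors, has one that spans intron 3 of 8 (chr2:13578509-13578588, plus strand). Trim28, a corepressor that silences transposons, has a transcript that spans intron 15 of 16 (chr7:13030376-13030454, plus strand). That transcript begins only 4 bases before the intron, so its level says little on whether the intron stayed joined to the upstream exon.
Calr: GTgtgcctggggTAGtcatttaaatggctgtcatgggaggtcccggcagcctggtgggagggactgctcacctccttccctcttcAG
Eef1a1: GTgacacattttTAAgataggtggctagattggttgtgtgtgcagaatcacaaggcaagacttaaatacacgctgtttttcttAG
Vim: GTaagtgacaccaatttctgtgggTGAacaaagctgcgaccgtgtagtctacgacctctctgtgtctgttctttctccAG
Trim28: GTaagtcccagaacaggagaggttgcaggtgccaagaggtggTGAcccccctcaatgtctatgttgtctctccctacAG
The stop began at base 13 of the intron in Calr and in Eef1a1, at base 25 in Vim and at base 43 in Trim28. The transcripts spanning the Calr intron stood at 939 TPM in replicate 1 and 139 TPM in replicate 2, and those spanning the Eef1a1 intron at 663 and 66.1 TPM. For Trim28 the values were 231 and 161 TPM, and for Vim 37.7 and 92.8 TPM, the lower value of this gene lying in replicate 1.

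A second set, of splice sites, shows the retained introns of splicing regulators described below. Each run holds 10 exon bases and 20 intron bases at an end of the intron, with the 2 intron bases at the splice site in capitals. Srsf1 and Srsf5 encode SR proteins, which mark exons for the spliceosome. Their introns were intron 4 of 4 of Srsf1 (chr11:88049599-88049976, plus strand, 378 bases) and intron 5 of 7 of Srsf5 (chr12:80947866-80949094, plus strand, 1229 bases).
Srsf1 donor: tctcgctctcGTacataagatgattggtga
Srsf1 acceptor: tttcatgtgtctttctgtAGacatatctga
Srsf5 donor: cagctggcagGTttgttgaaatacagtttt
Srsf5 acceptor: cataattgtcttgtgttaAGgatctcaaag
The next sites come from pairs of related genes, chosen after their values were seen because both genes of a pair had a transcript spanning the intron of the same number. Clk1 and Clk4 encode kinases that phosphorylate SR proteins. Their intron 4 of 12 lies at chr1:58419734-58420120 (minus strand, 387 bases) and chr11:51273169-51273559 (plus strand, 391 bases). Ccnl1 and Ccnl2 encode L-type cyclins, partners of the CDK11 kinases in splicing, and their intron 5 of 10 lies at chr3:65948791-65950479 (minus strand, 1689 bases) and chr4:155817988-155820328 (plus strand, 2341 bases).
Clk1 donor: agtgcaagatGTatagaatatttttcaaca
Clk4 donor: agagcaagatGTatagaatatttttcaaca
Ccnl1 donor: aaactgcctgGTaagttcctcttttacatt
Ccnl2 donor: agactgcatgGTgagttgattttccttgtt
Ccnl1 acceptor: agagctgaaatgtttttcAGgaattacatg
Ccnl2 acceptor: cttcctggttttggtttcAGgaactacatg
The Clk1 and Clk4 donor sites of intron 4 were the same at 29 of 30 bases, intron bases included. The acceptor sites of that intron were the same at 19 of 30 bases, 9 of which were among the 10 exon bases. Their intron 3, also spanned in both genes, had 17 of 30 bases the same at the donor and 19 at the acceptor site. The 2 introns thus differed in likeness at the donor only. The Ccnl1 and Ccnl2 sites were the same at 19 of 30 bases at either end, 8 and 9 of which were among the 10 exon bases.

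Most members were present at low levels. In both libraries 5573 members (54.1%) reached 1 TPM, 841 reached 10 TPM and 33 reached 100 TPM, while 250 stood at 0 in both. The median member held 2.88% of its gene in replicate 1 and 3.72% in replicate 2. Protein-coding transcripts of the same set of expressed genes had medians of 11.5% and 11.0%, transcripts typed as targets of nonsense-mediated decay 1.66% and 1.73%, and processed transcripts 1.16% and 1.28%. Together the members took 8.47% and 6.45% of the TPM of expressed genes. Of the expected counts, which are not per length, they took 4.71% and 4.44%, the median member being 792 bases long and the median coding transcript 1990 bases.

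Summed over its members, the median gene gave 10.8% of its TPM to retained intron transcripts in replicate 1 and 12.1% in replicate 2. The share reached 25% in both libraries in 854 genes (21.5% of the 3975) and 50% in 186 genes, and stayed under 5% in both in 952. With shares taken from expected counts the median was 5.52% and 420 genes reached 25% in both. Across the 3975 genes the shares of the 2 libraries had a Spearman correlation of 0.866, a description only, since both rest on the same gene models. The libraries lay at least 10 percentage points apart in 829 genes (20.9%), with replicate 2 higher in 386 and lower in 443. Genes of intermediate level had the larger shares: the median was 13.7% and 15.8% in 885 genes at 50 to 100 TPM, and 3.01% and 2.86% in 125 genes at 500 TPM or more. The share also went with how many retained intron models a gene has. Its median was 3.61% and 4.36% in the 1417 genes with 1 such model, and 33.6% and 34.1% in the 517 genes with 5 to 9.

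**Figure D1:**
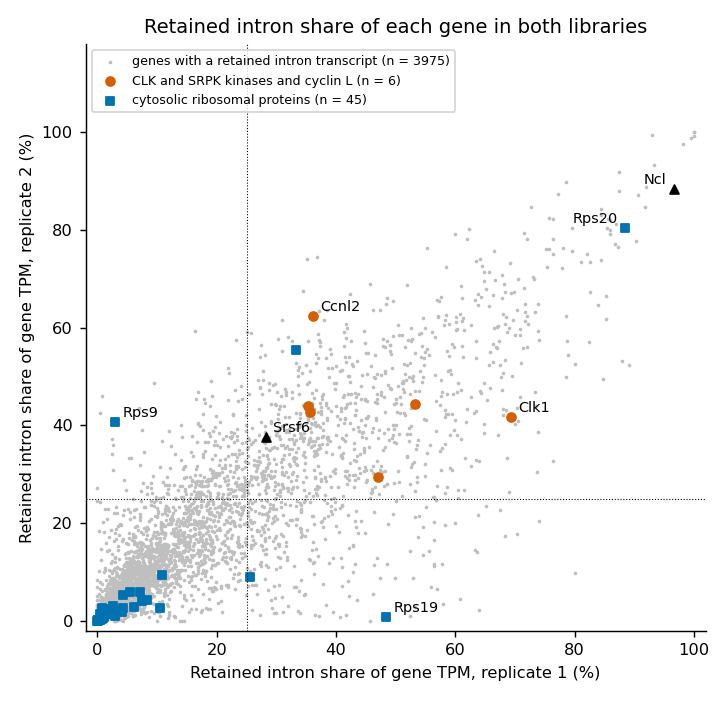
Share of each gene's TPM held by its retained intron transcripts in replicate 1 (x axis, %) and replicate 2 (y axis, %), 1 point per gene, with the 25% limits dotted. The 6 kinases and cyclins (circles) lie above 25% in both libraries, most ribosomal protein genes (squares) lie near 0, and Rps19 and Rps9 lie far off the diagonal on opposite sides; triangles mark Ncl and Srsf6.

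In 169 genes the most abundant transcript was a retained intron transcript in both libraries, and in 144 of these it was the same transcript. Counted in each library by itself, such genes numbered 378 in replicate 1 and 263 in replicate 2, so the leading transcript changed between libraries in many genes. The 15 genes with the highest mean share were Gm20427, Pagr1a, Pla2g4b, Spaca6, Taf10, Dynlt1c, Nmd3, Ncl, Dgkq, Mrps26, Mrps25, Gnb4, Rccd1, Cers4 and Rps20. Gm20427 and Pagr1a have only retained intron models in the tables, so their 100% follows from the annotation. Taf10, a subunit of the TFIID and SAGA complexes, gave 98.2% of 255 TPM in replicate 1 and 97.6% of 223 TPM in replicate 2 to its retained intron transcripts. Ncl, the nucleolar protein nucleolin, stood at 1410 and 321 TPM and gave 96.7% and 88.3%. Nmd3, which exports the large ribosomal subunit, gave 93.3% in both libraries, but 51.8% and 48.3% of its expected counts. Mrps26, a protein of the mitochondrial ribosome, gave 87.5% and 91.9%. By expected counts Taf10 held 85.7% and 80.6%, Ncl 88.5% and 67.2%, and Mrps26 60% and 70.6%. Rps20, of the small ribosomal subunit, gave 88.5% and 80.4% of its TPM and 46.8% and 31.2% of its counts.

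The members with the highest TPM were mostly short models of abundant genes. A retained intron transcript of Anp32a, an inhibitor of protein phosphatase, is 629 bases long (chr9:62373439-62377781) and stood at 2407 TPM in replicate 1 and 388 TPM in replicate 2. One of Vim, 535 bases long (chr2:13579369-13582478), stood at 1757 and 390 TPM, or 66.5% of the gene in replicate 1 and 33.8% in replicate 2. One of Ptms, the nuclear protein parathymosin, is also 629 bases long (chr6:124914049-124915224) and stood at 1874 TPM in replicate 1 and 14.8 TPM in replicate 2. Replicate 1 was the higher library in all of these, as in 13 of the 15 members with the highest TPM. The opposite order held for Rps9, of the small ribosomal subunit, whose 378-base member (chr7:3704041-3704877) stood at 66.2 and 1003 TPM, and for Ppia, the cyclophilin A gene, whose 355-base member stood at 115 and 536 TPM. Members of globin genes, which are made by red blood cells, were also among them: that of Hba-a1 stood at 3021 and 1376 TPM and that of Hbb-bs at 975 and 286 TPM. Anp32a, Eef1a1, Ppia, the globins and the ribosomal protein genes have near-identical copies or pseudogenes elsewhere in the genome, so reads may be split between them and their values are uncertain.

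Splicing regulators were described from gene lists, in each of which the genes with a member are counted against all 3975 genes, 21.5% of which reached a share of 25% in both libraries, and the genes that lead a list do so by the mean of both. In the list of CLK and SRPK kinases and cyclin L, 6 of 10 expressed genes had a member, and all 6 reached it, with a median of 41.6% and 43.4%. These 6 have from 3 (Ccnl2) to 8 (Ccnl1) retained intron models each. Over all genes, 29.3% of those with 3 to 4 such models and 58.0% of those with 5 to 9 reached 25% in both libraries. Clk1 gave 69.4% of 417 TPM in replicate 1 and 41.8% of 272 TPM in replicate 2. Clk4 gave 53.3% and 44.3%, and Clk2, another kinase of the family, 35.6% and 42.8%. Ccnl1 gave 35.4% and 43.9%, and Ccnl2 36.1% and 62.3%, the highest value of the list in replicate 2. Srpk1, a kinase that acts on SR proteins in the cytoplasm, gave 47.0% and 29.5%. By expected counts Srpk1 fell to 18.8% and 13.1% and the other 5 genes stayed at 25% or more in both libraries.

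Within these genes the members were of different kinds. The leading Clk1 member in replicate 1 was a 724-base model at 196 and 33.6 TPM, and its 456-base model stood at 58.4 and 1.00 TPM. The 3191-base Clk1 model that spans whole introns went the other way, with 25.1 and 44.8 TPM. In Clk4 the long spanning model of 3543 bases stood at 24.3 and 20.4 TPM. In Ccnl2 a model of 4220 bases stood at 48.3 and 81.6 TPM, and the 3411-base model that spans intron 5 at 19.1 and 28.3 TPM. The 724-base and 456-base models of Clk1 were thus higher in replicate 1, and its 3191-base model in replicate 2.

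SR protein genes varied more. Of 8 with a member, 2 reached 25% in both libraries, Srsf11 at 82.5% and 57.0% and Srsf6 at 28.2% and 37.7%. The 1 member of Srsf6 is 2897 bases long and was among the steadiest abundant ones, at 155 and 162 TPM. Srsf1 gave 34.8% and 24.8%, Srsf5 10.9% and 28.5%, Srsf3 11.4% and 19.5%, Srsf2 6.71% and 9.67%, and Srsf4, lowest by the mean of both libraries, 2.69% and 6.63%. Among 13 hnRNP genes, whose proteins package nuclear RNA, 2 (15.4%) reached 25% in both: Ptbp1, the repressor of neuronal exons, at 37.6% and 46.1%, and Hnrnpl at 25.2% and 35.7%. Hnrnpd was lowest by the mean of both libraries, at 0.0971% and 0.363%. By expected counts no hnRNP gene reached 25% in both libraries. Among 23 genes of the core spliceosome 3 did by TPM (13.0%), led by Prpf40b at 44.3% and 50.3%. Of 29 other RNA-binding protein genes 7 did (24.1%), led by Tial1 (41.6% and 52.9%) and Rbm17 (43.2% and 46.7%), and 24 of the 29 were higher in replicate 2, against 2374 of all 3975 genes, 4 of 13 translation factors and 15 of 45 ribosomal protein genes. Rbm39 gave 8.54% and 18.8%, and Ddx5, an RNA helicase, 0.908% and 1.85%. Mat2a, Srsf7, Hnrnph1, Snrnp70, Meg3, Tubb3 and Pkm were expressed but have no transcript of this type in the tables.

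Host genes of small nucleolar RNAs, which carry these RNAs in their introns, had 7 of 13 genes (53.8%) at 25% or more in both libraries. After Ncl came Zfas1 with 48.5% and 66.0%, Gas5 with 57.6% and 49.2%, and Snhg5 with 52.4% and 52.8%. Gas5 has 20 members, the largest number of any gene, and the 13 hosts have 2 or more each. Over all genes, 13.95% of those with 2 members and 76.0% of those with 10 or more reached 25% in both libraries. The lowest of the list by the mean of both libraries was Hspa8, a heat shock protein, at 5.23% and 2.96%.

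Genes of the nervous system itself mostly held small shares. Of 12 young neuron genes with a member 1 reached 25% in both libraries, the cell adhesion gene L1cam with 52.5% and 57.3%, and it held 10.9% and 13.4% of its counts there. Ank3, which anchors channels at the axon's start, gave 22.8% and 20.1%, and Mapt, the tau gene, 0.138% and 0.394%. Of 18 neural progenitor genes 2 reached it (11.1%). Vim gave 68.0% and 42.1%, and Hes1, a repressor downstream of Notch, gave 57.0% and 27.7%. By expected counts neither reached 25% in both libraries, with 29.7% and 14.6% for Vim and 23.6% and 6.69% for Hes1. The Notch ligand Dll1 gave 23.5% and 31.6%. Kif5a, an axonal motor gene known for an intron that Ptbp1 controls, was expressed but has no retained intron model. Vamp2, a presynaptic gene of the same kind, gave 24.8% and 13.2% of its TPM, and 6.39% and 3.35% of its counts. Whether the Vamp2 models hold the intron that Ptbp1 controls was not examined. Among 32 chromatin regulators 8 reached 25% in both, led by Trim28 (51.3% and 48.6%) and the remodeller Chd8 (46.9% and 50.6%). Trim28 held 12.7% and 12.1% of its counts in these transcripts. Of 21 proliferation genes 5 (23.8%) did, led by Tyms, which makes thymidylate, at 59.9% and 39.1%.

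Genes of basic metabolism and translation lay below the median of all genes. The 45 cytosolic ribosomal protein genes with a member had medians of 1.74% and 1.35%, and 2 of them (4.44%), Rps20 and Rpl5 (33.4% and 55.4%), reached 25% in both libraries. Rps19 gave 48.5% in replicate 1 and 0.758% in replicate 2, and Rps9 gave 3.01% and 40.6%, so in both of these genes the share rested on 1 library. The 10 glycolysis genes with a member had medians of 3.99% and 3.48%, with Pfkp, a phosphofructokinase, apart from the rest at 75.2% and 76.1% and Pgk1 at 0.0657% and 0.0700%. Of 38 genes of the respiratory chain 4 reached 25% in both (10.5%), and of 13 translation factors 1 did, the helicase Eif4a2 at 36.2% and 41.4%.

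**Figure D2:**
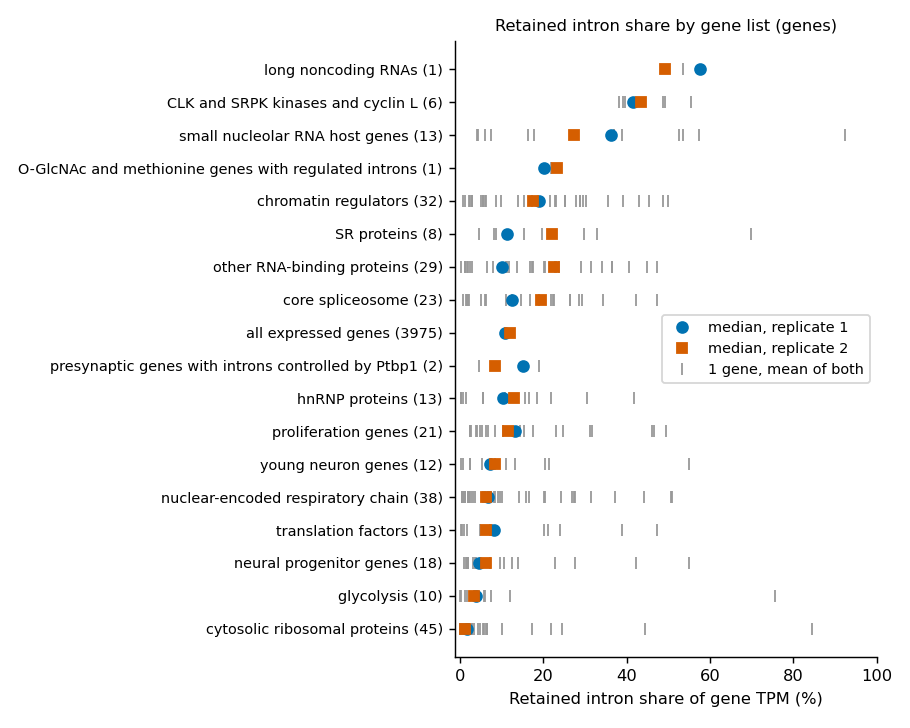
Share of gene TPM held by retained intron transcripts (x axis, %) for each gene list (y axis, with the number of genes that have such a transcript); circles and squares are the medians of replicates 1 and 2, and each tick is the mean of both libraries for 1 gene. The kinase and cyclin L list stands at 41.6% and 43.4%, against 10.8% and 12.1% for all genes and 1.74% and 1.35% for ribosomal proteins.

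Shares were compared between the libraries for the 6955 members with at least 100 expected counts over both. In 2169 of them (31.2%) the share differed at least 2-fold, against 31.2% of all 27546 transcripts so compared. The share was at least 2-fold higher in replicate 2 in 1379 members (19.8%; 17.1% of all transcripts) and at least 2-fold lower in 790 (11.4%; 14.1% of all transcripts). The number differing was therefore near that of transcripts in general, and members were more often on the higher side in replicate 2. The direction went with length. Of members shorter than 500 bases 28.3% were lower and 17.1% higher in replicate 2, and of those of 2000 bases or more 4.63% were lower and 20.1% higher. Coding transcripts showed the same order, with 35.5% lower and 12.2% higher below 500 bases, and 8.79% lower and 15.3% higher from 2000 bases. The median difference between a transcript's length and its effective length, which follows the size of the sequenced fragments, was 177 bases in replicate 1 and 190 bases in replicate 2. Its part in these differences, and that of the markers of other tissues given above, was not tested.

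**Figure D3:**
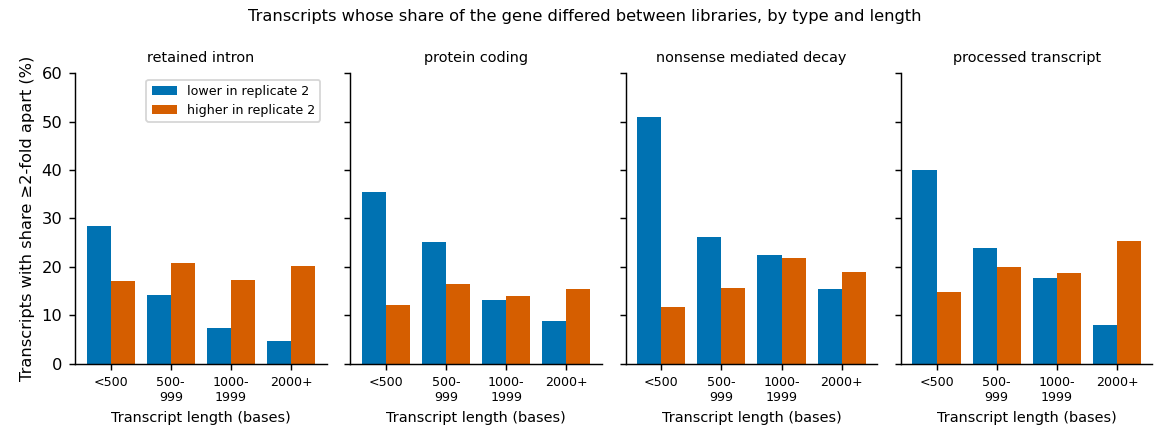
Percentage of transcripts whose share of the gene was at least 2-fold lower (blue) or higher (orange) in replicate 2 than in replicate 1, by transcript length in bases (x axis) and type (panels). In the retained intron panel the blue bars fall from 28.3% below 500 bases to 4.63% from 2000 bases, and the orange bars stay between 17.1% and 20.8%.

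The members with the largest ratios were each listed at 0 in 1 library. Listed at 0 in replicate 1 were a 731-base member of Hnrnpk, an RNA-binding protein, with 100.2 TPM in replicate 2, and members of Cdk1 (35.4 TPM), Adgrl1 (17.0 TPM), Atp6v1g2 (3.27 TPM) and Pla2g4b (1.70 TPM). Listed at 0 in replicate 2 were a 655-base member of Tpm3, a tropomyosin, with 141 TPM in replicate 1, and members of Nop56 (54.2 TPM), Tia1 (13.4 TPM), Sgce (7.92 TPM) and Wdr73 (2.90 TPM). By the rule their genes stood at 10 TPM or more in both libraries, so a 0 can be an estimate that gave the reads to an overlapping transcript.

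The models of 9990 members have the same length in GENCODE M21, and their exons were compared with the introns of the gene's other transcripts. Of these, 3323 (33.3%) span at least 1 whole intron, 6572 (65.8%) only begin or end inside an intron, and 95 do neither. Spanning members were longer, with a median of 1246 bases against 715, and held more of their gene, with a median share of 3.95% and 4.96% against 2.39% and 3.16%. The members that only begin or end in an intron held most of the members' TPM, 67.6% in replicate 1 and 60.6% in replicate 2. For them a high share does not show that a whole intron was kept. These models can also hold exon bases of other transcripts, and reads in their intron part were not counted by themselves.

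The spanning members cover 4005 different coding-gene introns in 1815 genes. Their median length was 244 bases, against 1312 bases for the 57172 other introns of the genes with a member, and 42.9% were under 200 bases against 13.5%. Within a gene the retained introns had the shorter median in 1450 of 1809 genes (80.1%). They lay somewhat later in the transcript, at a median of 60% of the introns counted from the 5′ end against 50%. An exon must be long to span an intron whole, so short introns are easier to annotate as retained, and that part of the difference cannot be told apart here. Of the 4005 introns 98.2% began with GT and ended with AG, and 45 began with GC. The opening GTATCCTT, typical of introns removed by the minor spliceosome, stood in 14 introns and ATATCCTT in 6, read on the gene's strand from the first base. Of these 6, a pair in Prim1 shares 1 opening. Among the introns with these openings, named after their values were seen, were introns of Polr2e, an RNA polymerase subunit, whose spanning members stood at 10.4 and 41.5 TPM, and of Rfc5, a clamp loader of DNA replication (21.9 and 21.2 TPM).

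The retained introns had a median GC content of 51.6%, and the 100 bases of transcript on either side 54.0%. The flanks were the richer in 2507 of 3860 introns, and in the 4 short introns printed above the range was 38.8% (Eef1a1) to 59.8% (Calr). Of 3748 introns between coding exons 89.1% held a stop codon in the upstream reading frame, and 88.8% and 89.7% did when the frame was moved by 1 or 2 bases. Lengths were a multiple of 3 in 33.5%, as in 33.2% of the other introns. A small nucleolar RNA gene lay inside 28 of the retained introns (0.699%) and inside 139 of the others (0.243%). These included 3 introns of Hspa8, 3 of Eif4a2 and the 343-base intron of Nop56, which encodes a protein of the same small nucleolar particles and whose spanning members stood at 159 and 49.1 TPM.

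**Figure D4:**
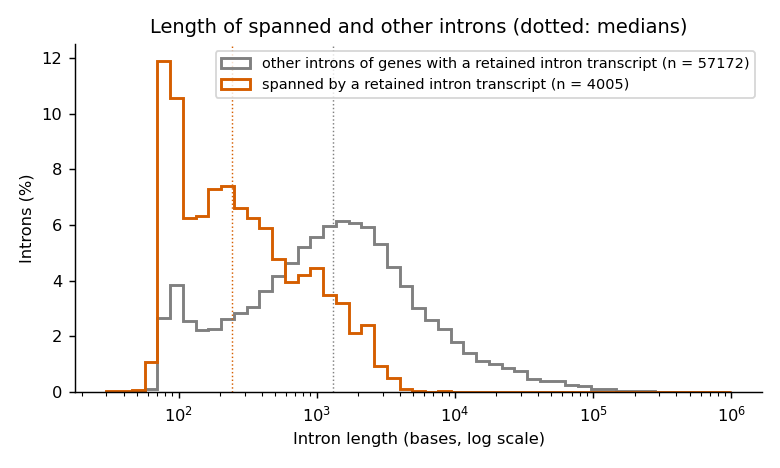
Length of introns spanned whole by a retained intron transcript (orange) and of the other introns of all genes with such a transcript (grey), as a percentage of each set, on a log axis in bases. The spanned introns peak near the shortest lengths with a median of 244 bases, and the others have a median of 1312 bases.

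The mm9 files of the same libraries gave other readouts of the same introns: a list of transcribed contigs and a list of splice junctions. Each junction has 2 read counts, which are not tied to a replicate by name. The mm9 models are those of Ensembl 65, matched by transcript identifier, which holds 8742 of the members (84.9%). In them 3488 introns were spanned whole by a member. Contigs on the gene's strand covered 96.0% of these from end to end, against 61.2% of 49835 other introns of all genes with a member. The gap was smaller under 200 bases, at 98.9% and 91.9%, and at 1000 to 5000 bases it was 88.3% and 55.1%. Reads that splice the intron out were present for 95.9% of the spanned introns, so nearly all of them were also removed in some molecules.

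Spliced reads were fewer at the highest estimated retained shares. Both measures come from the same libraries, so the fall is not an independent check of the shares. The retained share of an intron was taken as the TPM of members spanning the intron over the TPM of spanning and splicing transcripts together, averaged over the libraries. Over all spanned introns the median number of spliced reads was 95.8% of that of the gene's other introns. Among introns of the gene's most abundant coding transcript, a restriction chosen after seeing the data, the median number of spliced reads was 95.8% of that of the transcript's other introns at a retained share under 1%, 103% at 1 to 5%, 94.8% at 5 to 20%, 74.7% at 20 to 50% and 59.1% at 50% or more. Introns that no member spans stood at 100.4%. The quartiles overlapped widely, from 32.1% to 99.4% in the highest class and from 70.0% to 145% at 1 to 5%. Of the 412 such introns with a retained share of at least 20% in both libraries, 134 had under 50% of the spliced reads of their neighbours (32.5%), against 12.9% of introns that no member spans. When rarely used coding transcripts were counted too, the highest class fell to 2.58%.

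**Figure D5:**
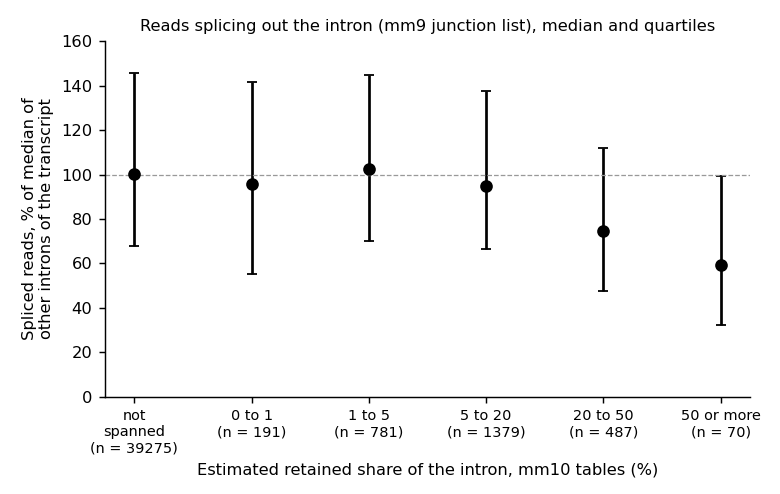
Reads splicing out an intron in the mm9 junction list, as a percentage of the median of the other introns of the gene's most abundant coding transcript (y axis), by the retained share of the intron estimated from the mm10 tables (x axis, %). Points are medians over introns and bars the quartiles; the median lies between 94.8% and 103% in the 3 classes under 20%, at 74.7% from 20 to 50%, and at 59.1% from 50%.

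The introns of splicing regulators whose sites are printed above differed in this readout. The Srsf1 intron had 80 spliced reads, against a median of 12189 for the gene's other introns, and a retained share of 50.9% and 47.7%. The Srsf5 intron had 12, against 4836, with a retained share of 27.0% and 42.2%. In Clk1 the intron printed above had 2370 spliced reads and the 871-base intron before it 1415, against 4211 for the others. The Clk4 introns of the same number had 753 and 439, against 1073. The Ccnl2 intron had 516, against 3648, and the Ccnl1 intron 671, against 1374. In all of these genes the retained intron had fewer spliced reads than the median of the gene's other introns. The cold-inducible RNA-binding protein gene Cirbp, named after its values were seen, had the same pattern in a 217-base intron, with 944 against 5835 and a retained share of 45.6% and 42.2%. The median in each gene is over introns of all its coding transcripts, rarely used ones included. Few spliced reads, as in Srsf1 and Srsf5, can thus also mark an intron that only rarely used transcripts remove, which was not told apart here. The first stop codon in the upstream reading frame began at base 6 of the Srsf1 intron and at base 7 of the Srsf5 intron. Whether the leading coding transcript of either gene holds these bases as part of its own exon is not shown here, so retention is not established for them.

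The short introns printed first each had more spliced reads than the median of the gene's other introns. The Trim28 intron had 14205 spliced reads, against 7820 for the gene's other introns, although its retained share was 44.9% and 35.6%. The Calr intron had 11670, against 10770, with a retained share of 73.2% and 26.2%. The Eef1a1 intron had 98592, against 57097, and the Vim intron 36498, against 31651, with retained shares of 7.38% and 0.764%, and of 6.50% and 17.5%. Rps20 stood further apart: its first intron had 25234 spliced reads, against 958, with a retained share of 88.4% and 79.7%. In Trim28, Calr and Rps20 a high retained share thus stood beside spliced reads above those of the other introns, and the cause was not tested. The spanning models of Trim28 and Rps20 begin only a few bases before these introns, so their share says little on the upstream exon boundary. The Rps20 reference of 958 is a median over other introns of all the gene's coding transcripts, rarely used ones included.

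Shares from the mm9 transcript table, in RPKM, which is per transcript length and library depth, were compared with those above. Of 71 named genes in both, the means of the 2 values lay less than 10 percentage points apart in 42 and further apart in 29. Over 3489 genes in both, the median share was 15.4% and 16.3% by the first and second mm9 value and 12.1% by the mm10 mean, with a Spearman correlation of 0.791 as a description. By the first and second mm9 value Ccnl2 held 53.3% and 74.3%, Clk4 38.8% and 47.1%, Srsf11 87.7% and 60.4%, Pfkp 71.7% and 69.9% and L1cam 36.2% and 58.0%. Clk1 held 22.3% and 44.5%, Srpk1 16.1% and 9.30%, and Gas5 99.7% and 96.8%, each far from at least 1 of its mm10 values. The same held for Hspa8 with 44.9% and 75.7%, Eef1a1 with 56.5% and 24.9%, Eif4a2 with 61.7% and 58.9%, Hnrnpl with 54.6% and 47.5%, Ccnl1 with 59.6% and 59.9% and Hes1 with 32.9% and 3.74%.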

How the data were processed

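The authors deposited, for each library, transcript tables of expected counts and TPM on annotation M4 of mm10, per the deposited README; the quantifier is not given in the sources used here. Those tables also hold the authors' percentage of gene TPM per transcript, for which the shares here were recomputed. They also deposited mm9 files: transcript RPKM and exon models on Ensembl 65, splice junction counts, and a contig list with a pooled signal level, of which only the positions were used. Transcript types, exons and sequences came from GENCODE M21 by identifier; 312 members had another length there and entered no model comparison. Introns of at least 30 bases were used. Shares, medians and counts were computed with pandas 2.3.3 and numpy 2.4.6. A share was called different at 2-fold, with 100 counts over both libraries and a prior of 0.5 counts. The call was run on simulated counts drawn for each transcript by itself. These hold no error in dividing reads between overlapping transcripts, so the run says nothing on such errors. Named genes were the highest 15 by share and by TPM, the 5 largest ratios each way, the extremes of each list and a fixed set. Members, rules and lists were chosen with earlier results of these data known. Both libraries carry the same donor label of the strain, so their spread may be partly technical. No coordinate was converted between builds. Some items of the fixed set are not reported here.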

Additional observations from a re-analysis of the deposited data

How the results depend on the processing

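No paired analysis was possible because the series has 1 group. The median retained intron share per gene was 12.1% as the mean of both libraries, 10.8% to 12.1% with 1 library left out, 13.1% for genes at 20 TPM or more, and 5.52% from expected counts. Genes at 25% or more in both libraries numbered 854, and 420 from expected counts. Genes led by a retained intron transcript numbered 169, 263 to 378 with 1 library left out, and 104 from expected counts. At a fold of 4, 669 members (9.62%) differed between the libraries, against 13.1% of all transcripts. Spliced reads over spanned introns were 95.8% of those of the gene's other introns, 97.0% by the first read count alone, and 92.6% over introns of the most abundant coding transcript, a setting chosen after seeing the data. The other planned settings kept these summary values within 1.5 times for counts and within the spread for medians. Of 80 named genes, the share moved beyond the spread in 55 from expected counts, and in 9 without members under 500 bases, which left 65 within it and no value for the others. From expected counts, also chosen after seeing the data, 5 of the 6 kinases and cyclins reached 25% in both libraries, but none of the young neuron, neural progenitor or hnRNP genes did. Reads shared by overlapping transcripts were divided by the authors' model, and members with 1 to 10 TPM had deposited TPM bounds, of a level not given in the sources used here, that spanned a median of 39.5% and 41.5% of the estimate.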
